A study of Homo sapiens with 16 samples.

Results

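Cells given (2R,6R)-hydroxynorketamine (HNK) alone were compared with cells given estradiol (E2) alone, in 2 RNA-seq libraries of each, which are 4 of the 16 libraries of the series. The pair was chosen because, among the other conditions of the series, (2R,6R)-HNK lay at the shortest distance from E2 over the whole expression profile, so that distance is given as a description and has no test. The series asked how transcripts of HMC3 cells, an immortalized line derived from human microglia, respond to the anesthetic and antidepressant ketamine and its hydroxynorketamine metabolites, with and without E2. Its 8 conditions, with 2 libraries each, were vehicle, E2, ketamine, (2R,6R)-HNK, the mirror-image metabolite (2S,6S)-HNK, and E2 with each of these compounds. The comparison described here asks where the transcript levels under one metabolite differ from those under the hormone.

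In all groups used here, HMC3 cells were kept for 24 h in medium with charcoal-stripped serum, which is depleted of steroid hormones, then for 24 h without serum, and were treated for 24 h in medium without serum or phenol red. The (2R,6R)-HNK group received 400 nM of the metabolite and no E2. The E2 group received 0.1 nM of the hormone and no ketamine or metabolite. Vehicle libraries, which received neither compound, are given as background. The doses differ between the 2 groups, so each value compares 1 dose of one compound with 1 dose of the other. The (2R,6R)-HNK libraries held 78275204 and 58121307 counts and the E2 libraries 62267790 and 58865355, within the range of 55300614 to 81646165 over the series. The 10 most abundant genes took 8.06% and 8.06% of the counts with (2R,6R)-HNK and 8.11% and 8.08% with E2. Nothing in the labels or methods says that the 2 libraries of a group came from separate cultures, so the p-values measure only the spread between these libraries, which may be technical. Over genes, the counts of the 2 libraries differed by 2.68 times the sampling variance with (2R,6R)-HNK and by 2.84 times with E2, and each library was counted as 1 sample. Of the counts from 1 to 9, 65.8% were even, so some reads may have been counted 2 times, which would raise both these ratios and the detection limits given for counts of 0. The cause was not tested.

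Metallothioneins are small proteins rich in cysteine that bind zinc and copper ions, and their genes are switched on by a zinc-sensing transcription factor when free zinc rises. Interferon-stimulated genes are switched on when type I interferons activate JAK kinases and a transcription factor complex that contains IRF9, and many of their products block the replication of viruses. E2 acts through the nuclear receptors encoded by ESR1 and ESR2 and through the membrane receptor encoded by GPER1.

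The microglial name of the cells was checked against 18 marker genes of microglia, of which 5 were expressed enough to be tested. SPI1, which encodes the transcription factor that specifies myeloid cells, TYROBP and the complement genes C1QA, C1QB and C1QC had 0 counts in all 4 libraries. AIF1, CX3CR1, P2RY12, TMEM119, ITGAM and PTPRC had from 0 to 4 counts in each library. A count of 0 allows up to 0.0389 and 0.0525 CPM in the (2R,6R)-HNK libraries and up to 0.0481 and 0.0509 CPM in the E2 libraries (3 counts, counting error only), where CPM are counts relative to the scaled library total. The 18 markers summed to 77.8 and 74.1 CPM with (2R,6R)-HNK and to 81.9 and 80.4 CPM with E2. The cells are therefore called HMC3 cells and not microglia in the rest of the text. Of the 11 mesenchymal markers 8 were tested, the most abundant per kilobase being the collagen gene COL1A1 at 575 RPKM. Only 5 of the 11 reached 1 RPKM, and LUM had 0 counts in all 4 libraries. The epithelial keratin gene KRT18 was at 199 RPKM, and 2 of 6 epithelial markers reached 1 RPKM. Of the 8 mesenchymal markers tested, 3 were higher with (2R,6R)-HNK (37.5%, beside 11.8% of all genes tested). COL1A1 did not pass, with a log2 fold change of -0.06 (95% confidence interval -0.11 to -0.01). Among the 3 was COL1A2, the second chain of type I collagen, at 245 and 244 CPM with (2R,6R)-HNK and 202 and 203 CPM with E2.

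Distance was taken as the Euclidean distance on log2 CPM over the 16004 genes tested. From the mean of the E2 libraries, the mean of (2R,6R)-HNK lay at 38.2, followed by ketamine at 42.4, E2 with ketamine at 50.1 and (2S,6S)-HNK at 56.4. The farthest was vehicle, at 62.5, and this depended on the genes used: over the 500 most variable genes, vehicle came next, at 21.3, after (2R,6R)-HNK at 19.03 and ketamine at 20.3. The (2R,6R)-HNK libraries were 45.4 from each other, and the E2 libraries were 46.6 from each other. Between the 2 groups the distances ran from 47.2 to 53.1, so each of the 4 libraries was nearest to the other library of its own group, by a small margin.

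Of 25370 genes in the table, 16004 were tested with the quasi-likelihood method of edgeR. When a call needed an adjusted p under 0.05 and also a doubling or halving (a log2 fold change of 1 either way), 25 genes (0.156% of those tested) were higher with (2R,6R)-HNK than with E2 and 28 (0.175%) were lower. Without the limit on the fold change, 1893 genes (11.8%) were higher and 1915 (12%) were lower. Most of the larger changes were in genes near the limit of detection. Of the 25 genes, 21 had a mean under 1 CPM over the 4 libraries, and of the 28, 25 did. In 13 of the 25 and 16 of the 28, the mean of a group was under 10 counts. Of them, 2 and 4 had a group with 0 counts in both libraries, for which the fold change is poorly determined and is not given. At a mean of at least 5 CPM, the 3 genes past both limits were the metallothionein genes MT1E and MT1F, which were higher, and KLF2, which was lower. Of the 10289 genes at that level, 1809 were higher and 1801 lower at any fold. Among the genes that passed at a mean of at least 5 CPM, the median size of the log2 fold change was 0.18, and its 90th percentile was 0.31. Passing genes under 5 CPM are not in these 2 values. The counts past the fold limit depended on the tool and on single libraries. DESeq2 on the 16 libraries gave 3 higher (MX1, MT1E and MT1F) and 1 lower (KLF2), and 3541 at any fold. It returned no adjusted p for the other 22 of the 25 and 27 of the 28, nor for 4643 of the 16004 genes, so these genes were not assessed by it and did not fail its test. Without the (2R,6R)-HNK replicate 2 library, 16 genes were higher with the fold limit, and without the E2 replicate 1 library, 2334 genes passed at any fold in place of 3808.

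**Figure D1:**
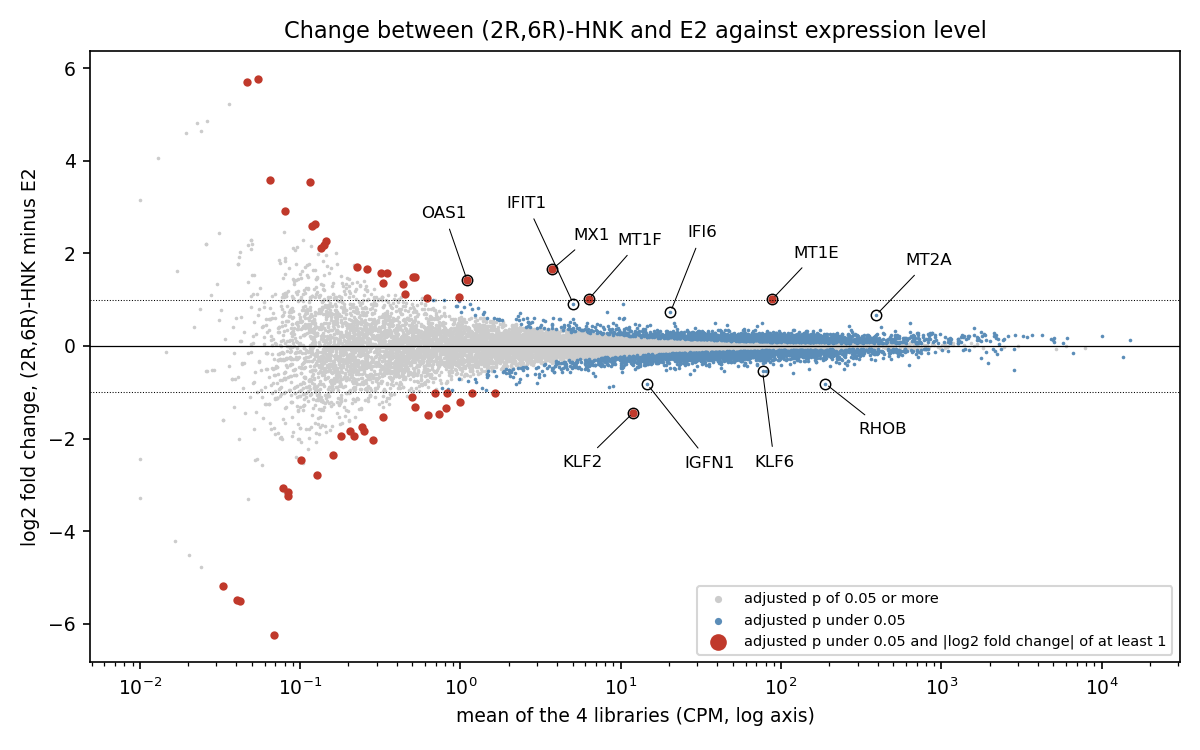
Log2 fold change of each of the 16004 genes tested, (2R,6R)-HNK minus E2, against the mean CPM of the 4 libraries on a log axis. Red points passed both the adjusted p limit and the fold limit (dotted lines at 1 and -1), blue points passed the adjusted p alone, and most red points lie under 1 CPM.

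Metallothionein genes were the most abundant genes with a doubled level. MT1E, on chromosome 16 of GRCh37 from 56659387 to 56661024, was at 115 and 120.2 CPM in the (2R,6R)-HNK libraries and at 59.4 and 57.6 CPM in the E2 libraries. Each (2R,6R)-HNK library was thus about double each E2 library, and the 2 groups were far apart compared with the gap between replicates. MT1F was at 7.83 and 9.04 CPM with (2R,6R)-HNK and at 4.20 and 4.15 CPM with E2. MT1X was at 12.9 and 14.1 CPM against 6.36 and 8.11 CPM. MT2A, by far the most abundant of the 4 per kilobase, with 526 RPKM in the (2R,6R)-HNK group and 331 RPKM in the E2 group, was at 479 and 482 CPM against 296 and 309.8 CPM. In all 4 genes both (2R,6R)-HNK libraries were above both E2 libraries. The log2 fold changes were 1.01 for MT1E (SE 0.04), 1.01 for MT1F (SE 0.12), 0.90 for MT1X (SE 0.10) and 0.67 for MT2A (SE 0.03). By the quasi-likelihood test of edgeR with Benjamini-Hochberg adjustment, adjusted p was 2.23e-25 for MT1E, 1.82e-09 for MT1F, 4.63e-10 for MT1X and 1.24e-24 for MT2A. MT1E and MT1F sit at the fold limit: an offset for GC content and exon length put MT1E at 0.91, and leaving out (2R,6R)-HNK replicate 2 put MT1F at 0.91, and both still passed the adjusted p. These genes are near-identical copies in 1 cluster, and the deposited counts hold only uniquely mapped pairs, so the split between the copies is uncertain.

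The list of metallothionein and zinc transport genes had 28 members tested, of which 11 were higher and 3 lower. Their median log2 fold change was 0.09, against a median of -0.00461 over all genes tested. With 1 library left out the list median ran from 0.09 to 0.15. Among the zinc transporters, SLC30A1, which moves zinc out of the cell and is itself induced by zinc, was at 11.6 and 13.3 CPM with (2R,6R)-HNK and at 9.004 and 7.44 CPM with E2. The groups did not overlap, and the log2 fold change was 0.59 (SE 0.10, adjusted p = 3.83e-06 in the quasi-likelihood test of edgeR, Benjamini-Hochberg adjusted). The 3 members that were lower, named here after their values were seen, all encode importers of metal ions. SLC39A10 was at 18.2 and 17.8 CPM with (2R,6R)-HNK and at 25.2 and 25.7 CPM with E2, a log2 fold change of -0.50. SLC39A6 had a log2 fold change of -0.23 and SLC39A14 one of -0.10. Other members of the same transporter family were higher, also named after their values were seen, with 0.09 for SLC39A1, 0.16 for SLC39A3, 0.15 for SLC39A7 and 0.15 for SLC39A13. MTF1, the gene of the zinc-sensing factor, also named after its values were seen, was at 22.9 and 21.2 CPM with (2R,6R)-HNK and at 23.5 and 25.2 CPM with E2. It did not pass the test (log2 fold change -0.14, 95% confidence interval -0.26 to -0.02, adjusted p = 0.0931 in the quasi-likelihood test of edgeR, Benjamini-Hochberg adjusted). The share of this list that was higher, 39.3%, compares with 11.8% of all genes tested, and the share that was lower, 10.7%, with 12%.

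**Figure D2:**
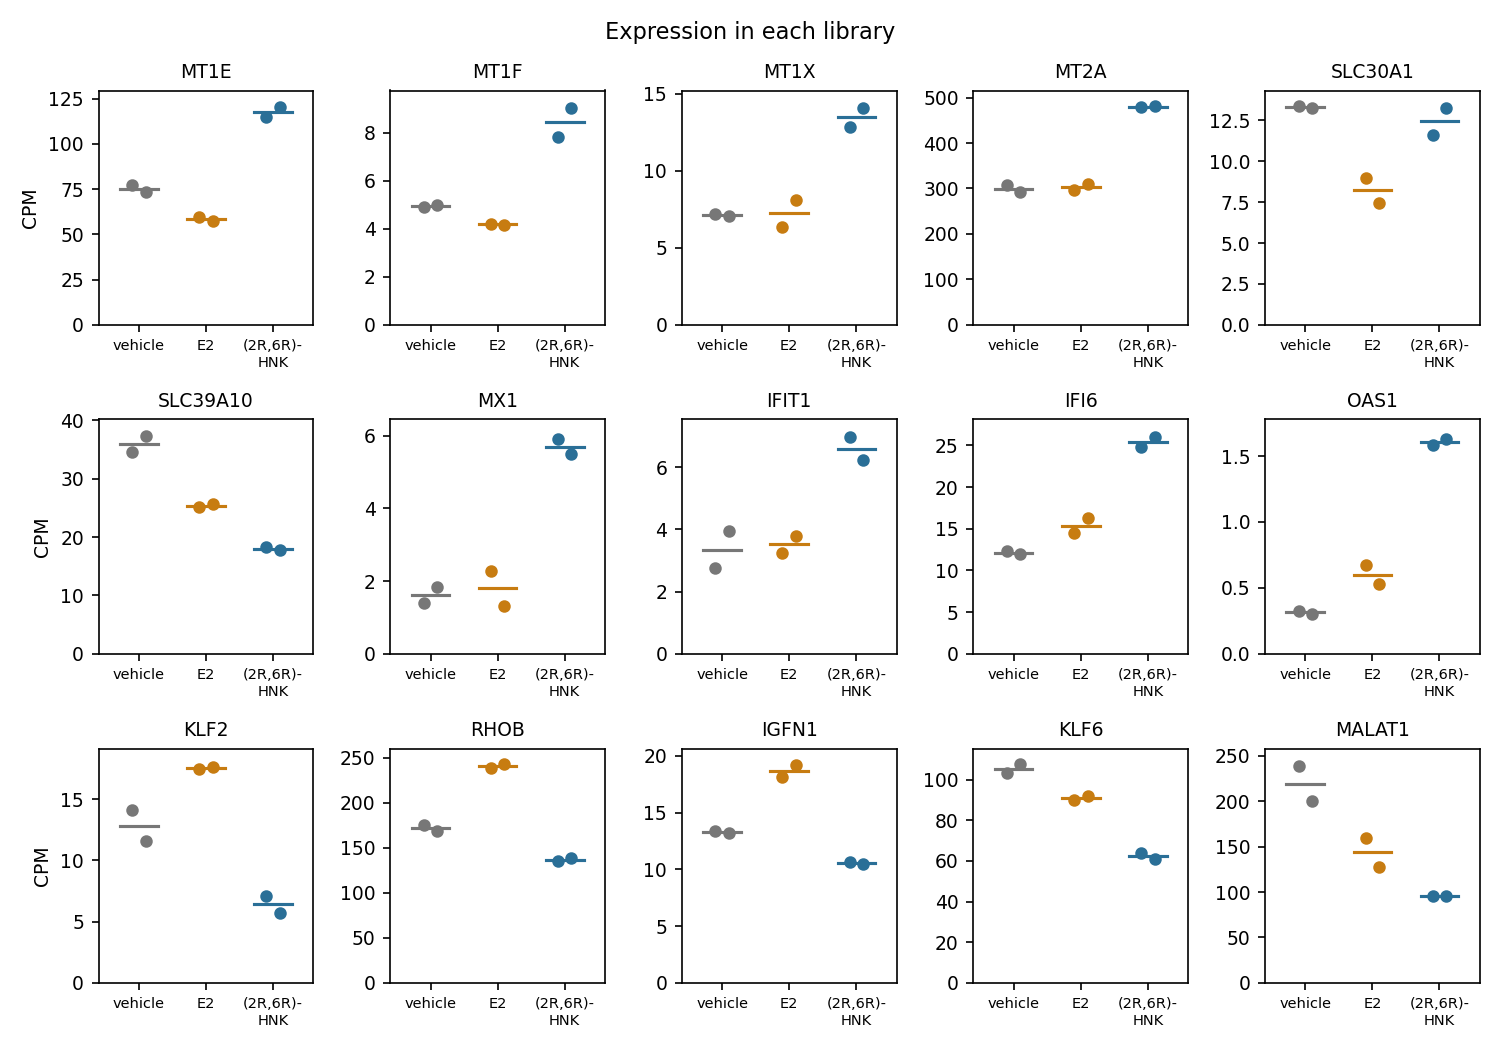
CPM of 15 genes in each library given vehicle, E2 or (2R,6R)-HNK (points) with the group means (lines), each panel with its own axis from 0. The (2R,6R)-HNK points of the metallothionein and interferon-stimulated genes lie above the E2 points, and those of KLF2, RHOB, IGFN1, KLF6 and MALAT1 lie under them.

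The promoters of 3 of the zinc-responsive genes are shown, since all 3 were higher with (2R,6R)-HNK than with E2. Each is a stretch of 300 bases from 250 bases before to 50 bases after the transcription start, read from RefSeq on GRCh38.p14 and written 5′ to 3′ on the strand of the gene. MT2A lies at chr16:56608334-56608633 (plus strand), MT1X at chr16:56682220-56682519 (plus strand) and SLC30A1 at chr1:211579112-211579411 (minus strand). Capitals mark the core of the metal response element, TGCACNC or TGCGCNC, on either strand, a motif that was added after the values were seen.
MT2A: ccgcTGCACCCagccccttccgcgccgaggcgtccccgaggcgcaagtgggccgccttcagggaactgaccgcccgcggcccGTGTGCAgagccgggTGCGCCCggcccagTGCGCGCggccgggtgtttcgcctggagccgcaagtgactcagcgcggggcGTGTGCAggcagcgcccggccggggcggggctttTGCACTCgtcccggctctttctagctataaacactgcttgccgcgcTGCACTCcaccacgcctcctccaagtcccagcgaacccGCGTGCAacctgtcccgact
MT1X: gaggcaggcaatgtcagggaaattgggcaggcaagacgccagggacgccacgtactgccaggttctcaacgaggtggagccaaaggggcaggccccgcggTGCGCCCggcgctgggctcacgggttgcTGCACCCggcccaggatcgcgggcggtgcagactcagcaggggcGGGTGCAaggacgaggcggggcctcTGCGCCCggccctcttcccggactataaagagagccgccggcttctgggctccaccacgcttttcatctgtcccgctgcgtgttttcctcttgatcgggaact
SLC30A1: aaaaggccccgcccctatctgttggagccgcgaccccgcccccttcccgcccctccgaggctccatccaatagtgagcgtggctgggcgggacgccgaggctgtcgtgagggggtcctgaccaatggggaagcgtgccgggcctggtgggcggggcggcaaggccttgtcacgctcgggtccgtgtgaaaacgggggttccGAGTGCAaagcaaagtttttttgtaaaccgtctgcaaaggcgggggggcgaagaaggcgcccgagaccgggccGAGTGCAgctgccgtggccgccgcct
The core occurred 8 times in the MT2A sequence, 4 times in MT1X and 2 times in SLC30A1, counting sites that do not overlap each other. Of the 2 promoters shown further below for another motif, IFI6 also held 2 of these cores, which are not marked there, and IFIT1 held 0. Over the 12202 tested genes with a promoter sequence, 38.3% held the core at least once and 10.7% at least 2 times, so a single match is common. Of the 8 metallothionein genes tested, 2 had a promoter sequence in the table. MT1E and MT1F had none.

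Genes of the response to interferon were higher with (2R,6R)-HNK as well. Of 59 list members tested, 20 were higher and 0 lower, with a median log2 fold change of 0.17, and the shares were 33.9% and 0% beside 11.8% and 12% of all genes tested. MX1, a GTPase that blocks the replication of influenza and other viruses, was at 5.91 and 5.49 CPM with (2R,6R)-HNK and at 2.28 and 1.32 CPM with E2. OAS1, which makes the second messenger that activates RNase L, was at 1.58 and 1.63 CPM against 0.673 and 0.526 CPM. Both genes were higher in each (2R,6R)-HNK library than in either E2 library, and the E2 libraries differed more from each other than the (2R,6R)-HNK libraries did. The log2 fold change was 1.66 for MX1 (SE 0.17) and 1.41 for OAS1 (SE 0.27), with adjusted p of 7.72e-11 and 8.03e-05 in the quasi-likelihood test of edgeR, Benjamini-Hochberg adjusted. IFIT1, which binds viral RNA that lacks the host's cap, was at 6.96 and 6.23 CPM against 3.24 and 3.80 CPM. IFI6, a membrane protein induced by interferon alpha, was at 24.8 and 26.1 CPM against 14.5 and 16.3 CPM. USP18, which removes ISG15 from proteins and dampens interferon signaling, was at 5.60 and 6.58 CPM against 3.99 and 4.09 CPM. In these 3 genes too the groups did not overlap. Their log2 fold changes were 0.91 for IFIT1, 0.73 for IFI6 and 0.59 for USP18, with SE of 0.13, 0.07 and 0.12. The counts of MX1 include reads that may belong to TMPRSS2 on the other strand, with which its exons share 562 bases, since the strand setting of the counting is not stated.

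Further members of the list are less certain or were chosen later. MX2, a relative of MX1 that restricts HIV, was at 1.22 and 1.43 CPM with (2R,6R)-HNK and at 0.385 and 0.882 CPM with E2, and its log2 fold change of 1.07 rested on the low E2 replicate 1 library. Without that library it was 0.58 (adjusted p = 0.299), without E2 replicate 2 it was 1.78, and without (2R,6R)-HNK replicate 2 the adjusted p was 0.0699, all by the quasi-likelihood test of edgeR, Benjamini-Hochberg adjusted. ISG15, the ubiquitin-like protein attached to other proteins after interferon, and OAS3, a further member of the OAS family, are named after their values were seen. ISG15 was at 52.0 and 55.0 CPM against 37.9 and 39.9 CPM, and OAS3 at 17.3 and 16.2 CPM against 13.1 and 11.6 CPM. Both differed in the same direction in all pairs of libraries, with log2 fold changes of 0.46 and 0.44. OAS2, from the same family, was at 0.441 and 0.350 CPM with (2R,6R)-HNK and at 0.224 and 0.288 CPM with E2. It did not pass (log2 fold change 0.63, 95% confidence interval -0.45 to 1.72, adjusted p = 0.45 in the quasi-likelihood test of edgeR, Benjamini-Hochberg adjusted), and at this depth neither a doubling nor a lack of change could be told apart.

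The promoters of IFIT1 and IFI6 are shown for the same reason, also from RefSeq on GRCh38.p14 and over the same window. IFIT1 lies at chr10:89392373-89392672 (plus strand) and IFI6 at chr1:27672143-27672442 (minus strand). Capitals mark the interferon response core GAAANNGAA on either strand.
IFIT1: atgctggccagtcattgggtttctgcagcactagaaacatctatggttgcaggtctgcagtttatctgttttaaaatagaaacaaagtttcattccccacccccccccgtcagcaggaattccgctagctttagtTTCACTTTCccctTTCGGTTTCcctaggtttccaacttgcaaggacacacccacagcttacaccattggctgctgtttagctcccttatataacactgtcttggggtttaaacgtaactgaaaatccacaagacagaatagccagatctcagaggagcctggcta
IFI6: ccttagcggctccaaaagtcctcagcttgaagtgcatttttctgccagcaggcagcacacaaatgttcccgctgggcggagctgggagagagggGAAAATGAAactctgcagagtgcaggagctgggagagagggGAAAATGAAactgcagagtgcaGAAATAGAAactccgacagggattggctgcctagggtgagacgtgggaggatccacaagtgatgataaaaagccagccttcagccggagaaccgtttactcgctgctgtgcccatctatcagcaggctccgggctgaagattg
There were 2 such cores in the IFIT1 sequence and 3 in IFI6. Of the 20 interferon-stimulated genes that were higher, 16 had a promoter sequence, and 9 of these (56.2%) held the core, compared with 6.37% of the promoters of all genes tested. Over all 47 list members with a promoter sequence, whether or not they passed, the share was 61.7%.

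Genes that encode the signaling chain upstream of these targets held both directions. STAT3 was at 152 and 149 CPM with (2R,6R)-HNK and at 152 and 149.8 CPM with E2, and its log2 fold change was -0.01 with a 95% confidence interval of -0.06 to 0.05. SOCS3, an inhibitor of JAK kinases that STAT3 induces, was at 64.6 and 63.4 CPM against 63.0 and 64.6 CPM, with a log2 fold change of 0.00 and an interval of -0.08 to 0.09. For these 2 genes the groups overlapped, and the intervals leave room only for changes of less than 0.1 on the log2 scale. The low-count SOCS1 had an interval of -0.57 to 0.46 around -0.05, and JAK3, the JAK kinase of blood cells, one of -0.06 to 0.52 around 0.23. IRF9, the DNA-binding part of the interferon complex, was higher, at 27.8 and 26.7 CPM against 21.9 and 22.5 CPM (log2 fold change 0.29, SE 0.06). JAK1 was lower, at 84.0 and 85.0 CPM against 94.5 and 94.0 CPM, a log2 fold change of -0.16. IRF7, the master regulator of interferon alpha genes, had a log2 fold change of 0.17, JAK2 one of -0.38 and the corepressor gene SIN3A one of -0.17. With the offset for GC content and length these were 0.06 for IRF7, -0.28 for JAK2, which kept most of its change, and -0.07 for SIN3A. All 3 calls were lost there, where the adjusted p was 0.372 for IRF7, 0.0769 for JAK2 and 0.125 for SIN3A (the quasi-likelihood test of edgeR, Benjamini-Hochberg adjusted). IRF7 and JAK2 were also lost without (2R,6R)-HNK replicate 1 or without E2 replicate 1, and JAK2 with DESeq2 on the 4 libraries. Of 42 genes of JAK, STAT and SOCS signaling tested, 3 were higher and 12 lower (7.14% and 28.6%, beside 11.8% and 12% of all genes tested). Their median was -0.02, and it ran from -0.03 to -0.05 with 1 library left out. With the GC and length offset 3 were higher and 5 lower. Higher and lower were 2 and 7 without (2R,6R)-HNK replicate 1, 0 and 9 without E2 replicate 1, 1 and 10 without E2 replicate 2, and 5 and 12 with edgeR on the 4 libraries or with other scaling. Among the genes of antigen presentation by MHC class I, many of which interferons induce, 11 of 21 were higher and 0 lower (52.4% and 0%), with a median of 0.13. PSMB9, a subunit of the immunoproteasome, was at 5.64 and 5.26 CPM against 4.07 and 3.99 CPM (log2 fold change 0.44). That call was lost without (2R,6R)-HNK replicate 1 and with DESeq2 on the 4 libraries, where the log2 fold changes were 0.39 and 0.44. PSMB8, another subunit of the immunoproteasome, had a log2 fold change of 0.29.

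On the other side, KLF2 had the largest fall among genes of at least 5 CPM. KLF2, a Krüppel-like transcription factor on chromosome 19 of GRCh37 from 16435637 to 16439496 that keeps endothelial and immune cells quiescent, was at 7.07 and 5.74 CPM with (2R,6R)-HNK and at 17.4 and 17.6 CPM with E2. Both (2R,6R)-HNK libraries lay far under both E2 libraries. Its level was 0.368 times that with E2, a log2 fold change of -1.44 (SE 0.10, adjusted p = 3.78e-16 in the quasi-likelihood test of edgeR, Benjamini-Hochberg adjusted), and DESeq2 also gave -1.44. RHOB, a small GTPase of the actin cytoskeleton and of endosome traffic, was at 135 and 139 CPM against 239 and 243 CPM. With a log2 fold change of -0.81 (SE 0.03, adjusted p = 1.87e-25 by the same quasi-likelihood test in edgeR with Benjamini-Hochberg adjustment), it stood out by its close replicates. KLF6, a second Krüppel-like factor, was at 63.9 and 61.0 CPM against 89.9 and 91.8 CPM, a log2 fold change of -0.54. IGFN1, a gene of a muscle protein with immunoglobulin-like domains, was at 10.6 and 10.4 CPM against 18.2 and 19.2 CPM, a log2 fold change of -0.83. In none of these 4 genes did the groups overlap. KLF2 and KLF6 belong to a list of 33 immediate early and C/EBP genes with a median of -0.03. The median was -0.07 with the GC and length offset and ran from -0.09 to -0.01 with 1 library left out. In this list 4 genes were higher and 8 lower (12.1% and 24.2%, beside 11.8% and 12%). This count depended on the setting, with 2 higher and 12 lower under the GC and length offset. Leaving out (2R,6R)-HNK replicate 1 gave 2 and 8, (2R,6R)-HNK replicate 2 gave 3 and 3, E2 replicate 1 gave 2 and 6, and E2 replicate 2 gave 3 and 5. EGR1, which growth signals induce within minutes, went the other way, at 47.2 and 45.7 CPM against 36.99 and 35.8 CPM (log2 fold change 0.35), as did CEBPD, at 12.3 and 13.2 CPM against 9.32 and 9.84 CPM (0.41).

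Several long or noncoding transcripts were lower with (2R,6R)-HNK. MALAT1, an abundant RNA of nuclear speckles, was at 95.1 and 95.4 CPM with (2R,6R)-HNK and at 159.6 and 128 CPM with E2, a log2 fold change of -0.59 (SE 0.08). The E2 libraries differed widely in this gene, and both were above both (2R,6R)-HNK libraries. KCNQ1OT1, which silences neighboring genes on the imprinted paternal chromosome, was at 21.5 and 21.5 CPM against 32.9 and 32.9 CPM, a log2 fold change of -0.62. NEAT1, the scaffold of paraspeckles, was at 49.8 and 50.9 CPM against 67.7 and 65.6 CPM, a log2 fold change of -0.41. Of 17 nuclear long noncoding RNAs tested, 5 were lower and 1 higher (29.4% and 5.88%, beside 12% and 11.8% of all genes tested). With the GC and length offset 5 were lower and 3 higher, and the median of the list turned from -0.03 to 0.03. With 1 library left out the median ran from -0.06 to -0.003. TTN, the gene of the muscle protein titin, had a log2 fold change of -0.58. ANKRD12 and ZNF850, which encode nuclear proteins, had log2 fold changes of -0.65 and -0.56. PGM5P2, a pseudogene with close copies, and LOC100190986, a locus with no match in the annotation, were also among the 12 lower genes, with log2 fold changes of -0.87 and -0.89. Reads of MALAT1, KCNQ1OT1 and TTN cannot be told apart from those of TALAM1, KCNQ1 and TTN-AS1 on the other strand, where they overlap.

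PDGFRL, CPZ, RAB20 and C12orf57 complete the 12 that were highest by fold change at 5 CPM or more. PDGFRL, a gene similar to the ligand-binding part of the PDGF receptor, was at 10.7 and 9.83 CPM with (2R,6R)-HNK and at 6.44 and 5.99 CPM with E2. Its log2 fold change was 0.73 (SE 0.10). CPZ, a secreted carboxypeptidase that binds Wnt proteins, was at 12.02 and 11.4 CPM against 7.47 and 8.004 CPM, a log2 fold change of 0.60. RAB20, a small GTPase of phagosome maturation, was at 12.6 and 12.8 CPM against 8.43 and 8.31 CPM, also 0.60. C12orf57 was at 86.8 and 90.7 CPM against 60.4 and 64.7 CPM, a log2 fold change of 0.50. In each of the 4 genes both (2R,6R)-HNK libraries were above both E2 libraries. All 24 genes named for the size of their change at 5 CPM or more passed under every alternative that gave them a value, with a highest adjusted p of 0.0145 (the quasi-likelihood test of edgeR or DESeq2, Benjamini-Hochberg adjusted).

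Against vehicle, 10656 of the genes tested (66.6%) passed with (2R,6R)-HNK and 10007 (62.5%) with E2. Both of these comparisons use the same vehicle libraries, so their values are set side by side, and the difference between them is what the direct comparison tested. MT1E had a log2 fold change of 0.64 with (2R,6R)-HNK and of -0.36 with E2, both past the threshold in opposite directions, from 77.04 and 73.6 CPM in the vehicle libraries. For MT2A the values were 0.68 and 0.01, for MT1X 0.92 and 0.02 and for MT1F 0.77 and -0.24, and the E2 values of these 3 genes did not pass. SLC30A1 shows another arrangement, with -0.10 for (2R,6R)-HNK, which did not pass, and -0.69 for E2, from 13.4 and 13.3 CPM in vehicle. For MX1 the values were 1.81 with (2R,6R)-HNK and 0.15 with E2, and for IFIT1 0.98 and 0.07, with neither E2 value past the threshold. Other interferon-stimulated genes rose with both treatments: IFI6 by 1.07 with (2R,6R)-HNK and 0.34 with E2, OAS1 by 2.34 and 0.93, MX2 by 2.26 and 1.20, and USP18 by 0.88 and 0.29. KLF2 fell with (2R,6R)-HNK and rose with E2, by log2 fold changes of -0.99 and 0.45, from 14.1 and 11.6 CPM in vehicle. RHOB did likewise, with -0.33 and 0.48, and so did IGFN1, with -0.34 and 0.49. For KLF6 and MALAT1 both treatments were lower than vehicle and (2R,6R)-HNK was the lower of the pair, with -0.75 and -0.21 for KLF6 and -1.20 and -0.61 for MALAT1.

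**Figure D3:**
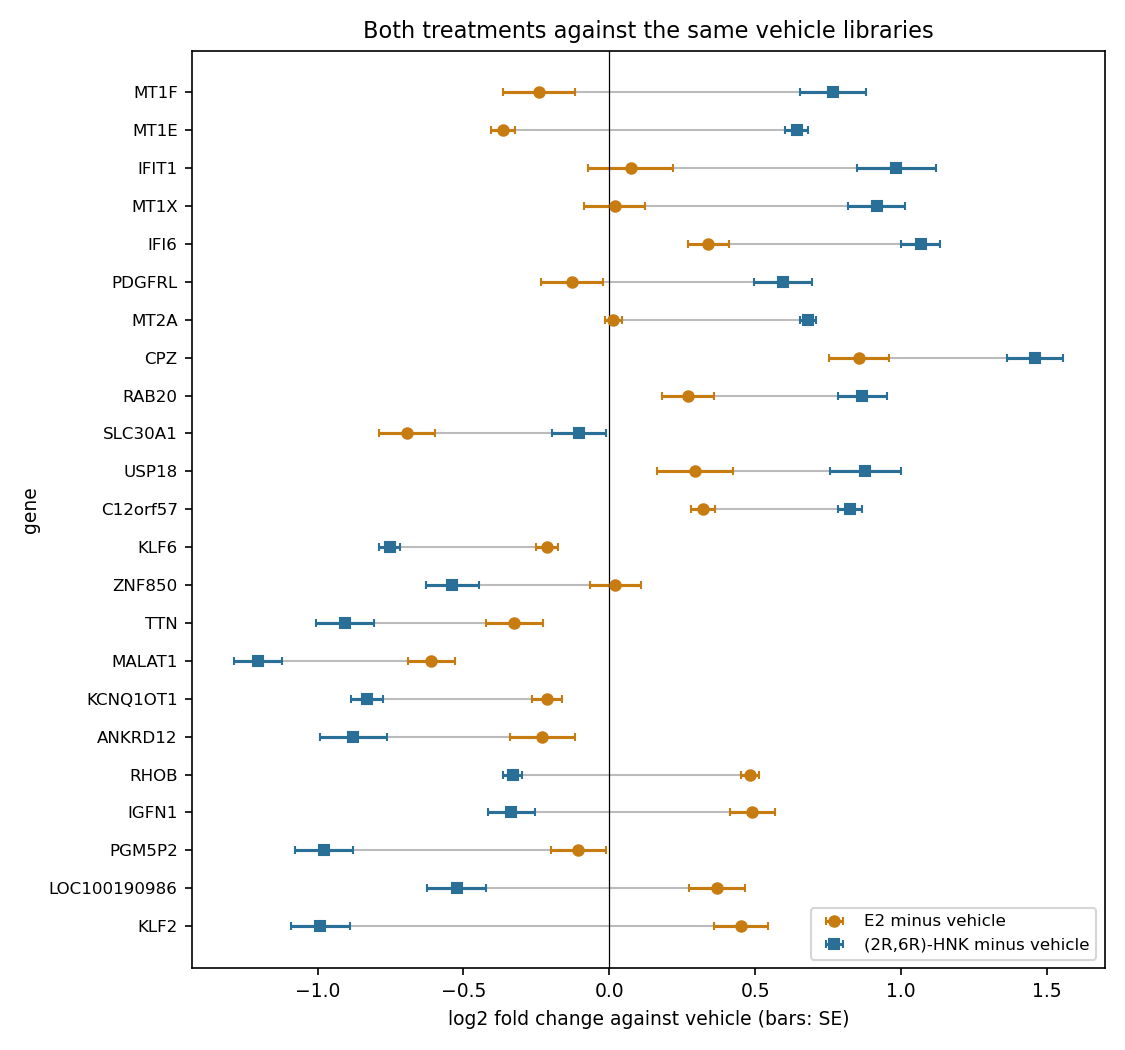
Log2 fold change against vehicle (x axis, bars are SE) of genes with large changes at 5 CPM or more, for E2 (circles) and (2R,6R)-HNK (squares), which share the vehicle libraries. MT1E, KLF2, RHOB, IGFN1 and LOC100190986 lie on opposite sides of vehicle past the threshold in both treatments.

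Among the receptors through which E2 acts, ESR1 had 0 and 2 counts in the (2R,6R)-HNK libraries and 0 and 0 in the E2 libraries and was not tested. ESR2 was at 0.324 and 0.262 CPM with (2R,6R)-HNK and at 0.593 and 0.475 CPM with E2, and GPER1 at 1.27 and 1.54 CPM against 1.35 and 1.56 CPM. Neither passed, with log2 fold changes of -0.85 (95% confidence interval -1.76 to 0.06) for ESR2 and -0.06 (-0.54 to 0.43) for GPER1. Of 24 genes of estrogen receptors and their coregulators tested, 1 was higher and 10 lower (4.17% and 41.7%, beside 11.8% and 12% of all genes tested), with a median of -0.12, and 2 were higher without (2R,6R)-HNK replicate 1. NCOA2, a coactivator of steroid receptors, was at 19.1 and 19.8 CPM against 24.6 and 24.3 CPM (log2 fold change -0.33), and NRIP1, a corepressor that estrogen induces in breast cells, at 39.5 and 39.2 CPM against 47.3 and 48.9 CPM (-0.29). The groups did not overlap in either. Of 29 genes that estrogen induces in other cells, 4 were higher and 4 lower (13.8% each, close to the 11.8% and 12% of all genes tested). Their median was 0.03, and it ran from -0.006 to 0.12 with 1 library left out. With the GC and length offset 2 were higher and 5 lower. Without E2 replicate 1 the numbers were 2 and 2. XBP1, a factor of the secretory pathway, was higher by a log2 fold change of 0.28, and CCND1, which encodes cyclin D1, had one of -0.28.

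Of the other genes on the fixed list, EEF2, the elongation factor of translation, was at 5052 and 5081 CPM with (2R,6R)-HNK and at 4573 and 4569 CPM with E2, a log2 fold change of 0.15 (SE 0.02). C1R, the protease that starts the classical complement pathway, was at 9.86 and 9.32 CPM against 7.64 and 6.70 CPM, a log2 fold change of 0.42, and 672 bases of its exons overlap C1RL on the same strand. BDNF, a growth factor of neurons, was at 21.0 and 21.8 CPM against 24.5 and 25.9 CPM, a log2 fold change of -0.24. That call was lost without (2R,6R)-HNK replicate 1 and without E2 replicate 2, with adjusted p of 0.0512 and 0.053 by the quasi-likelihood test of edgeR, Benjamini-Hochberg adjusted, and reads of BDNF cannot be told apart from those of BDNF-AS. DLG4, the postsynaptic scaffold PSD-95, was at 22.2 and 22.6 CPM against 20.5 and 23.2 CPM, and the synaptic vesicle gene SYN1 at 0.933 and 0.560 CPM against 0.689 and 0.916 CPM. Neither passed, with intervals of -0.09 to 0.17 for DLG4 and -0.76 to 0.60 for SYN1.

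Small changes ran through large groups of housekeeping genes, and the shares of all genes tested that were higher and lower, 11.8% and 12%, are the background for the counts. Of 77 cytosolic ribosomal protein genes tested, 59 were higher and 2 lower, with a median log2 fold change of 0.20, and with the GC and length offset 63 were higher and 1 lower. Leaving out a library gave 55 to 57 higher and 0 or 1 lower. RPS3A was at 1829 and 1800.2 CPM with (2R,6R)-HNK and at 1377 and 1393 CPM with E2, a log2 fold change of 0.39 (SE 0.02). The groups were far apart and the replicates close, and the many pseudogenes of this family make the level of any single member uncertain. Of 58 nuclear genes of the respiratory chain, 29 were higher and 0 lower, with a median of 0.11, and 32 and 0 with the offset. NDUFS8, a subunit of complex I, was at 159.5 and 159.7 CPM against 126 and 129.8 CPM (0.32). Of 32 genes of glycolysis and the response to hypoxia, 20 were higher and 2 lower, with a median of 0.15. PGK1, which makes the first ATP of glycolysis, was at 1940.5 and 1945 CPM against 1593 and 1579.6 CPM, a log2 fold change of 0.29. ALDOC, an aldolase, had a log2 fold change of 0.50, a call lost without E2 replicate 1 (0.28). Of 33 genes of the integrated stress response, 13 were higher and 3 lower, with 13 and 5 under the offset and 8 and 2 without E2 replicate 2. PHGDH, the first enzyme of serine synthesis, was at 301 and 307 CPM against 225 and 228 CPM (0.42), and ASNS, which makes asparagine, at 65.3 and 64.8 CPM against 51.3 and 50.5 CPM (0.35). Among 49 genes of the cell cycle and DNA replication, 20 were higher and 8 lower, and CDK6, a kinase that drives cells out of the G1 phase, was at 122 and 123 CPM against 178 and 170.1 CPM (-0.51).

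**Figure D4:**
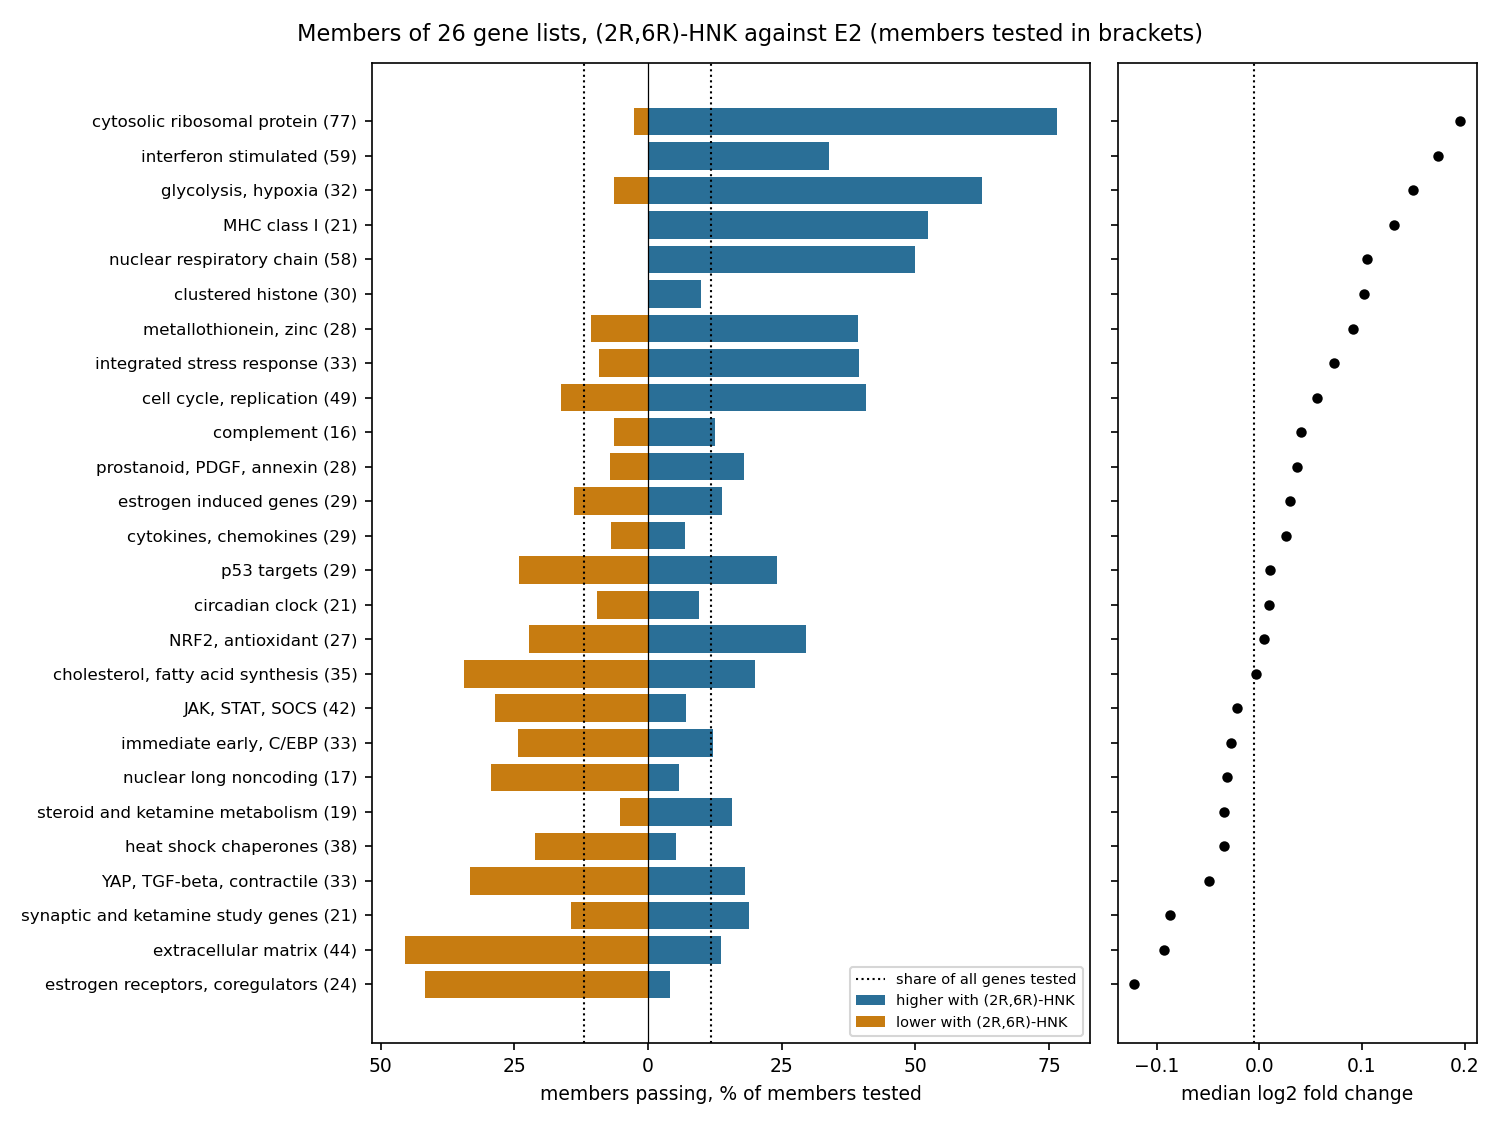
Left, percent of the tested members of 26 gene lists that passed as higher (to the right) or lower (to the left) with (2R,6R)-HNK than with E2, with the shares of all genes tested as dotted lines (11.8% and 12%). Right, the median log2 fold change of each list, from 0.20 for cytosolic ribosomal proteins to -0.12 for estrogen receptors and coregulators.

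Of 44 genes of the extracellular matrix, 20 were lower and 6 higher (45.5% and 13.6%, beside 12% and 11.8% of all genes tested). Their median was -0.09, and it ran from -0.08 to -0.15 with 1 library left out. These genes are long, with a median exon length of 7882.5 bases, and of all genes in the bin of that length 18.9% were lower. Whether the list differs from other genes of its length was not tested. With the GC and length offset 17 were lower and 4 higher, and without E2 replicate 1 17 were lower and 3 higher. THBS1, an adhesive glycoprotein that activates TGF-beta, was at 1710.1 and 1711 CPM with (2R,6R)-HNK and at 2214 and 2185 CPM with E2. The groups did not overlap, and the log2 fold change was -0.36 (SE 0.02, adjusted p = 2.62e-20 in the quasi-likelihood test of edgeR, Benjamini-Hochberg adjusted). TNC, a matrix protein of tissue repair, was at 232 and 229.9 CPM against 290 and 288 CPM (-0.32). HAS3, a hyaluronan synthase, was at 30.8 and 33.6 CPM against 40.0 and 39.9 CPM (-0.31). Its paralog HAS2 had a log2 fold change of -0.33. That call was lost in 10 of the alternatives, where the log2 fold change was from -0.27 to -0.35. Of 33 genes of YAP, TGF-beta and contractile proteins, 6 were higher and 11 lower (18.2% and 33.3%), with 5 and 7 without (2R,6R)-HNK replicate 1, 4 and 6 without E2 replicate 1, and 6 and 7 without E2 replicate 2. TGFBR1, a receptor of TGF-beta, was at 60.3 and 61.6 CPM against 81.5 and 78.7 CPM (-0.39), and INHBA, which encodes a subunit of activin, at 13.2 and 13.7 CPM against 18.3 and 16.8 CPM (-0.39).

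The remaining lists held both directions or few calls, against the same background of 11.8% higher and 12% lower. For cholesterol and fatty acid synthesis, 7 of 35 genes were higher and 12 lower, and HMGCS1, an early enzyme of sterol synthesis, was at 112 and 111 CPM against 132 and 134 CPM. The higher count was 3, 3, 2 and 4 without (2R,6R)-HNK replicate 1, (2R,6R)-HNK replicate 2, E2 replicate 1 and E2 replicate 2. For heat shock proteins and chaperones, 2 of 38 were higher and 8 lower, with 4 and 7 under the GC and length offset, 3 and 5 without (2R,6R)-HNK replicate 1, 2 and 4 without (2R,6R)-HNK replicate 2, and 1 and 5 without E2 replicate 1. Among NRF2 targets 8 of 27 were higher and 6 lower (7 and 3 without (2R,6R)-HNK replicate 1), and FTL, the light chain of the iron store ferritin, was at 2323 and 2334 CPM against 1903 and 1919 CPM. For p53 targets the numbers were 7 and 7 of 29, with 5 and 3 under the GC and length offset, 4 and 4 with DESeq2 on the 4 libraries or without E2 replicate 2, 5 and 2 without (2R,6R)-HNK replicate 2, and 5 and 3 without E2 replicate 1. Of the genes of steroid and ketamine metabolism, 3 of 19 were higher and 1 was lower, which was AHR, the receptor that induces many of these enzymes (log2 fold change -0.30), and without (2R,6R)-HNK replicate 1 the numbers were 3 and 2. Prostanoid, PDGF and annexin genes gave 5 higher and 2 lower of 28, and synaptic genes and genes of ketamine signaling 4 and 3 of 21. The former numbers were 2 and 1 without E2 replicate 1, 3 and 1 without (2R,6R)-HNK replicate 1, and 3 and 2 without either of the other libraries. The latter were 4 and 1 without (2R,6R)-HNK replicate 1. Cytokines and chemokines gave 2 and 2 of 29, complement genes 2 and 1 of 16, circadian clock genes 2 and 2 of 21, and clustered histone genes 3 and 0 of 30. Each of these last 4 pairs of counts moved by 1 or 2 genes under some alternative, for histones to 1 and 0 with the GC and length offset. Among marker lists of other cell types, in which few genes passed, 1 astrocyte marker of 6 tested was higher and 1 lower, 1 oligodendrocyte marker of 4 was higher, and 0 of 6 neuronal, 0 of 5 endothelial and 0 of 5 epithelial markers passed in either direction.

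The direction of change followed the base composition and length of the transcripts. Across the 15363 tested genes with an annotation (96%), the log2 fold change had a Spearman correlation of 0.28 with the GC content of the exons and of -0.245 with exon length. No p is given, as genes do not vary independently. The median log2 fold change ran from -0.07 in the lowest of 10 bins of GC content to 0.07 in the highest (0.08 in the bin before it), and from 0.07 in the bin of the shortest genes to -0.10 in that of the longest. The mean GC content of the counts was 52.2% and 52.1% in the (2R,6R)-HNK libraries, 51.9% and 51.9% in the E2 libraries, and 50.3% and 50.2% in the vehicle libraries. After an offset for GC content and length in each library, the correlations were -0.0359 and -0.0312, and 3205 genes passed at any fold, of which 2384 were among the 3808. Of the genes named above, ZNF850, TTN, C12orf57 and CPZ moved toward 0 with the offset and still passed. MT2A, MT1E and RHOB also still passed, and RHOB moved away from 0, to -0.91. What part GC content and length have in the small changes of whole gene lists was not tested.

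**Figure D5:**
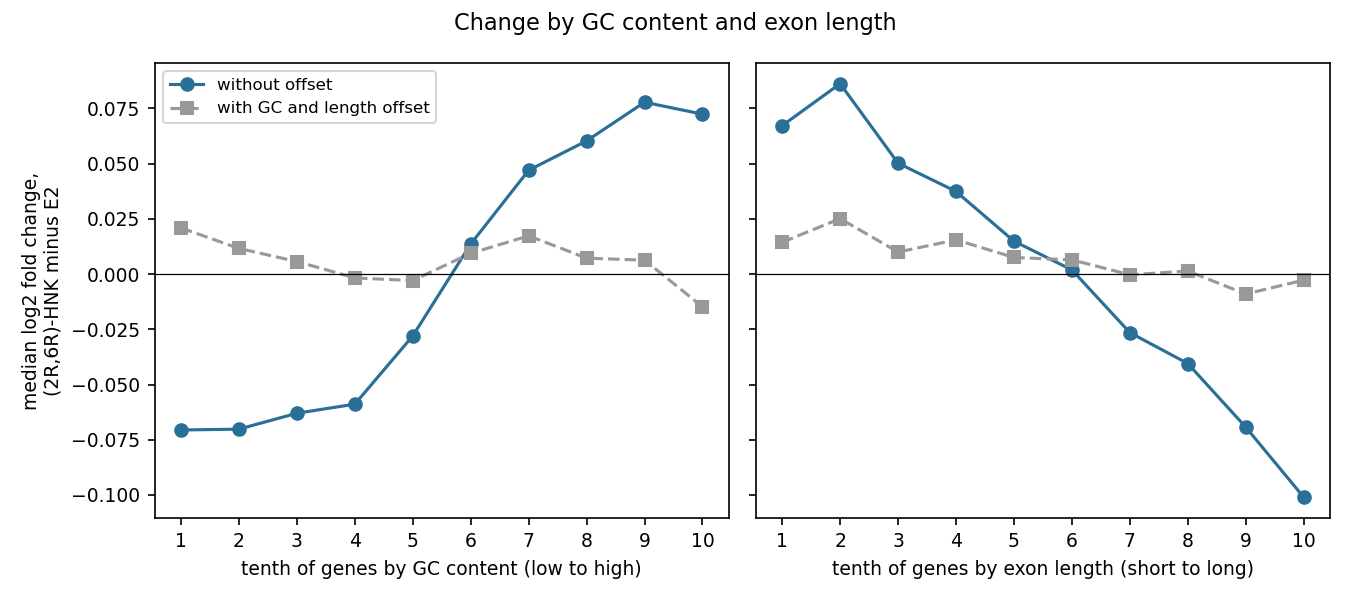
Median log2 fold change, (2R,6R)-HNK minus E2, in 10 equal bins of the 15363 annotated genes ordered by GC content of the exons (left) or exon length (right), without (circles) and with (squares) an offset for both. Without the offset the median rises with GC content and falls with length, and with it the medians lie close to 0.

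Promoters were also searched for a STAT site (TTCNNNGAA), the interferon response core (GAAANNGAA), an estrogen response element (an inverted repeat of GGTCA with a gap of 3 bases) and its single repeat (AGGTCA), on both strands. The first 2 motifs can share the letters GAA, and the single repeat can lie within the response element. Of the 25 genes higher past the fold limit, 13 had a promoter sequence, and 15.4% of these held a STAT site, 15.4% an interferon core and 15.4% a single repeat. Of the 28 lower genes, 20 had one, with shares of 25%, 15% and 15%. Over all genes tested the shares were 6.31%, 6.37% and 10.0%. Among the genes that passed at any fold, where the numbers are larger, 6.58% of 1580 higher genes and 5.69% of 1565 lower genes held a STAT site, 6.46% and 6.26% an interferon core, and 10.7% and 7.35% a single repeat. The full estrogen response element was found in 1 promoter of the 12202 and in 0 of those that passed. A match gives only the presence of the letters in this window.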

How the data were processed

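Gene-level read counts were used as the authors deposited them. According to the submitters' processing notes, reads were aligned to hg19 with TopHat2 2.0.14 and Bowtie2 2.2.6 and counted per gene with featureCounts 1.4.6. The study's methods give earlier versions of both aligners and say that uniquely mapped pairs were counted. Whether the counting used strand is not given in the sources used here. All 16 libraries were fitted together in R 4.3.3 with edgeR 4.0.16, with 8 group means, filterByExpr as the filter on low counts and TMM scaling. The contrast was the mean of (2R,6R)-HNK minus the mean of E2, tested by the quasi-likelihood method with Benjamini-Hochberg adjustment over 16004 genes, with 8 residual degrees of freedom and a common coefficient of variation of 2.81%. A call needed an adjusted p under 0.05 and, where stated, a log2 fold change of at least 1. Expression is given as CPM on the scaled library totals and, between genes, as RPKM. Named genes were, first, the 12 with the largest rise and the 12 with the largest fall among those that passed, that averaged 5 CPM or more and had no overlap between the groups. Next came up to 4 members of each gene list with an adjusted p under 0.05, a mean of at least 1 CPM and the largest change, and last a fixed list of STAT, JAK, SOCS, interferon, complement and synaptic genes and the estrogen receptors. The comparison and the gene lists were chosen with earlier results of these data known. Of the genes in the table, 21539 were matched to an annotation of GRCh37 by symbol and 1487 by an older symbol. Alternatives were DESeq2 1.42.0, other filters and scalings, a replicate block, an offset for GC content and exon length by loess (span 0.5), and leaving out each library. The fitting code was tested on simulated data.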

Additional observations from a re-analysis of the deposited data

How the results depend on the processing

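With the fold limit, 25 genes were higher and 28 lower. DESeq2 gave 3 and 1 on all 16 libraries and 2 and 1 on the 4 libraries compared. A minimum of 10 counts in each library gave 13 and 13. DESeq2 on the 16 libraries gave no adjusted p for 22 of the 25 and 27 of the 28 (on the 4 libraries, 23 and 27), and each of those it did assess passed with the fold limit, so its lower counts do not come from genes that failed its test. The filter on 10 counts leaves out genes near the limit of detection. Leaving out 1 library in turn, with the lone library of a group assumed to vary like the other groups, gave 16 to 29 higher genes, of which 6 to 11 were among the 25, and 20 to 32 lower genes, of which 9 to 16 were among the 28. At any fold, 3808 genes passed, and leaving out 1 library gave 2334 to 2982, of which 2245 to 2786 were among the 3808. The replicate numbers did not pair the libraries: over genes, the differences between replicates of the 2 groups correlated at 0.00435, within a range of -0.0258 to 0.0451 over all pairs of groups. A replicate block gave 23 higher and 28 lower genes and 3734 at any fold, and the block with the GC and length offset gave 18, 24 and 3214. The other alternatives stayed within 1.5 times of each count, among them a halving of all counts, chosen after seeing the data because 65.8% of counts from 1 to 9 were even, with 18 higher, 24 lower and 3837 at any fold. Of the 134 named genes tested, 125 passed, and 35 of these lost the call under some alternative, most often with the GC and length offset (22 genes) or without E2 replicate 1 (22 genes). No named gene changed sign while called in any alternative. With the 500 most variable genes (2R,6R)-HNK was still nearest to E2, at 19.03, and vehicle moved from rank 7 to rank 3. The pair was chosen by distance, so its first rank is no separate evidence.

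With 2 libraries in a group, the test rests on the spread pooled over 8 groups. Changes of low-count genes past the fold limit rest on few reads, and the sets that pass it share only part of their members when a library is left out, while other edgeR scalings and the block share most. At a mean of 5 CPM or more, small differences pass the threshold, and most are under 0.31 on the log2 scale. The doses of the compounds differ, so nothing here compares their potency. Genes with near-identical copies and overlapping genes are uncertain.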
